A study of Mus musculus with 6 samples.

Results

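The AMPA and kainate receptor subunit genes are the 9 genes Gria1, Gria2, Gria3 and Gria4, which encode the AMPA receptor subunits GluA1 to GluA4, and Grik1, Grik2, Grik3, Grik4 and Grik5, which encode the kainate receptor subunits GluK1 to GluK5. They were taken by gene symbol from a count table of 53715 genes, each symbol had 1 row, and all 9 were among the 16478 genes with enough counts to test. RNA came from the hippocampus of 6 male C57BL/6J mice, an inbred strain, at an age of 2 to 3 months. A group of 3 mice ate a control diet and 3 a ketogenic diet, which is rich in fat and poor in carbohydrate, for 3 weeks, and no mouse is labelled with a transgene, mutation or drug. Libraries are named control 1 to 3 and ketogenic 1 to 3. Each stands for a mouse as far as the labels show, since 6 mice and 6 libraries are given.

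AMPA and kainate receptors are ion channels opened by glutamate, each built of 4 subunits around a central pore. AMPA receptors carry most of the fast excitatory current at hippocampal synapses, and calcium passes through those that lack an edited GluA2. Kainate receptors lie on both sides of the synapse and on interneurons, and kainate itself, acting on them, is widely used to provoke hippocampal seizures in rodents. GluK1, GluK2 and GluK3 can form channels by themselves, while GluK4 and GluK5 bind glutamate tightly and need a partner from that first group.

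The sequence around the tip of the pore loop is shown here for all 9 genes, and the shares of the genes in the receptor transcripts are described further on. At the tip of the pore loop each gene encodes glutamine, and the enzyme ADAR2 edits the RNA of this codon so that it is read as arginine, nearly always in Gria2 and in part in Grik1 and Grik2. The sequences are from GENCODE M21 transcripts on GRCm38, 5′ to 3′ on the coding strand, with the codon in capitals and 21 bases on either side.
Gria1: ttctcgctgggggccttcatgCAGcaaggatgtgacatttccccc
Gria2: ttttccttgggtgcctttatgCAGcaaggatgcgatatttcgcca
Gria3: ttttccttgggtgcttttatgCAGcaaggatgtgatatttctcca
Gria4: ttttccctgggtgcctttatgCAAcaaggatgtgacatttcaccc
Grik1: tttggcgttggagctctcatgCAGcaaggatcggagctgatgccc
Grik2: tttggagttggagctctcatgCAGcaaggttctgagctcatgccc
Grik3: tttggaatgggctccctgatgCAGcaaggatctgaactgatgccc
Grik4: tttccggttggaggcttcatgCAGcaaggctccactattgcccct
Grik5: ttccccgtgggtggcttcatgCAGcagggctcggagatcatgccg
The codon is CAA in Gria4 and CAG in the other members. Over these 45 bases Gria2 and Gria3 had 42 in common, Grik1 and Grik2 had 41, and Grik3 and Grik4, the least alike pair, had 24. The edited codon of Gria2 lies at chr3:80706911-80706913 (minus strand) in exon 11 of 16, that of Grik1 at chr16:87940542-87940544 (minus strand) in exon 13 of 18, and that of Grik2 at chr10:49244329-49244331 (minus strand) in exon 13 of 17. Counts per gene do not show editing, nor the flip and flop exons by which AMPA subunits are spliced.

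The libraries held 16832240 to 18357792 counts each. Between libraries of the same diet the chi-square per degree of freedom was 5.81 to 17.2, above counting error, and each was used as a replicate. The extraction protocol speaks of retina, whereas the tissue label and treatment protocol give hippocampus: of 12 retina markers Rlbp1, Nrl and Sag had enough counts to test, Rcvrn had 2 to 6 counts in a library, Crx and Grm6 had no count in any library, and the 12 summed to 18.2 to 27.0 CPM (counts scaled to a common library size). Control 1 and control 2 stood apart by their choroid plexus transcripts, with 14 markers summing to 7465 and 3875 CPM against 824 CPM in control 3 and 60.9 to 110.7 CPM in the ketogenic libraries. Calls of the members, the auxiliary subunit genes and some other genes are therefore given below also without control 1 and control 2. This fit was chosen after seeing the data. In it control 3 alone stands for its diet and is assumed to vary like the other libraries.

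On the control diet the 9 genes spanned a wide range of levels. FPKM, fragments counted per kilobase of gene and scaled by library size, is used for levels set between genes. Gria1 led with 181 ± 2.17 FPKM (SD, n = 3, as for all levels), and ranked 160th of the 16478 tested genes by its mean over all libraries. Grik5 followed at 55.8 ± 2.49 FPKM and Gria2 at 53.5 ± 1.65 FPKM, which overlapped between libraries. Gria3 stood at 21.8 ± 0.593 FPKM and Grik4 at 10.4 ± 0.135 FPKM. Gria4 at 6.71 ± 0.885, Grik3 at 5.64 ± 0.793 and Grik2 at 4.89 ± 0.534 FPKM each overlapped with the next. Grik1 was lowest, at 1.20 ± 0.172 FPKM. On the ketogenic diet the order was the same except that Gria2 (51.3 ± 1.76 FPKM) came above Grik5 (50.02 ± 1.148 FPKM), and Gria4 (10.7 ± 0.867 FPKM) overlapped with Grik4 (10.8 ± 0.311 FPKM).

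The deposited gene lengths bear on this order. They equal the union of all GENCODE M21 exons in each of the 9 genes, retained introns included. Set against the longest coding transcript they were 1.5 times as long in Gria2, 1.90 in Gria3, 1.84 in Grik1, 1.41 in Grik2 and 1.37 in Grik5. The ratio was 1.16 in Gria4, 1.09 in Gria1, 1.01 in Grik4 and 1.00 in Grik3. FPKM of the first group, from Gria2 to Grik5, is lower for this added length, and comparisons between diets within a gene are not touched.

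The diets were then compared gene by gene. On the ketogenic diet Grik1, Gria4 and Grik3 rose, Gria1 fell, and Gria2, Gria3, Grik2, Grik4 and Grik5 did not pass the test. Calls come from the quasi-likelihood test of edgeR at a threshold of 0.05, with p-values adjusted by Benjamini and Hochberg's method over the 16478 genes. A positive log2 fold change means more on the ketogenic diet, and ± after it gives the standard error. The 4 called members are 44.4% of the 9, against 9.67% of all tested genes, of which 5.05% were called higher and 4.62% lower. The libraries of the diets did not overlap in 7 members, 4 of them higher and 3 lower with the ketogenic diet, where 27.6% of all tested genes did not overlap. The median log2 fold change was 0.05 over the 9 members and -0.0057 over all tested genes.

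**Figure D1:**
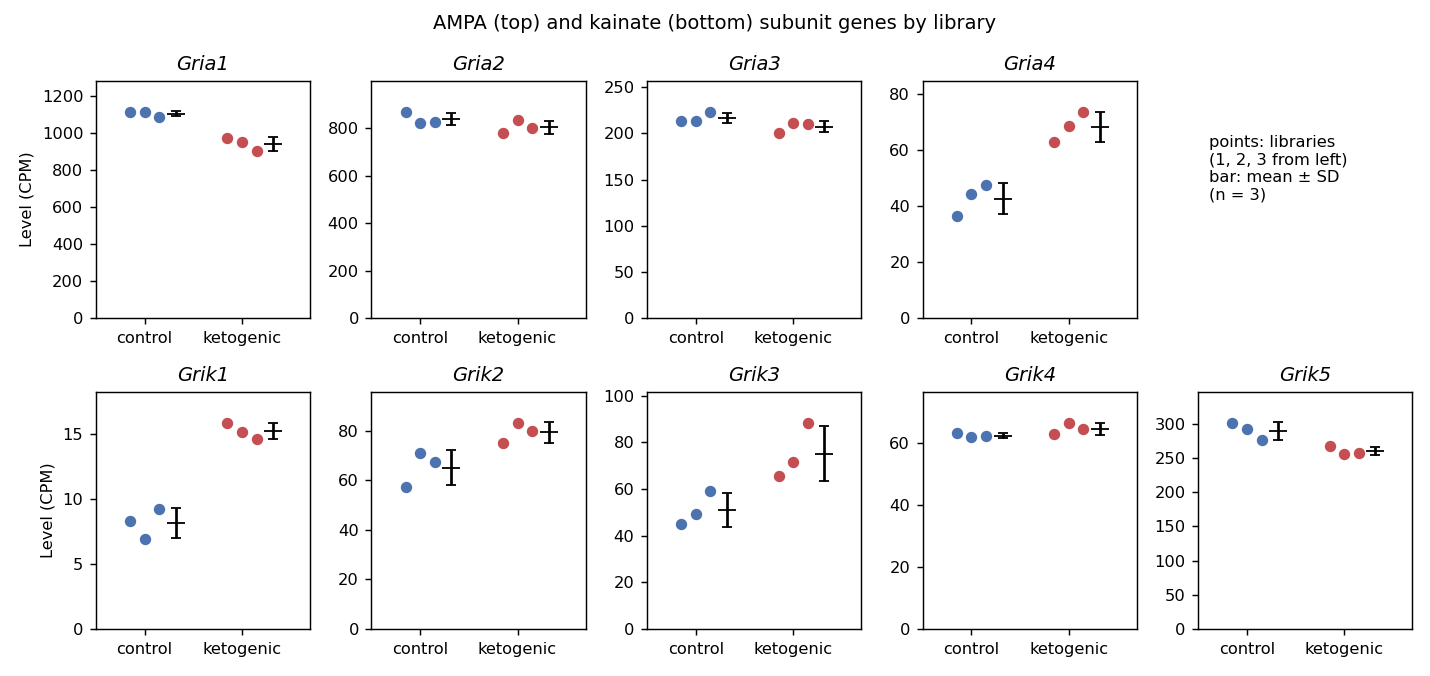
Level of each subunit gene in CPM (vertical axis, from 0) in every library, AMPA subunits above and kainate subunits below, with control libraries in blue, ketogenic libraries in red and mean ± SD (n = 3) as bars. All 3 ketogenic libraries lie above all 3 control libraries for Gria4, Grik1, Grik2 and Grik3, and below them for Gria1, Gria3 and Grik5.

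Among the AMPA subunits the scarcest rose and the most abundant fell. Gria4 (ENSMUSG00000025892, chr9:4417896-4796234, minus strand), whose product gives fast channels and is known in the hippocampus chiefly from parvalbumin interneurons, measured 36.4, 44.1 and 47.3 CPM on the control diet and 62.7, 68.4 and 73.5 CPM on the ketogenic diet. Every ketogenic library was above every control library. Its log2 fold change was 0.68 ± 0.10 (adjusted p = 0.00354), a 1.601-fold rise.

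Gria1 (ENSMUSG00000020524, chr11:57011387-57330244, plus strand) encodes GluA1, the subunit whose insertion into synapses accompanies long-term potentiation in area CA1. It measured 1112, 1113 and 1087 CPM on the control diet and 974, 951 and 901 CPM on the ketogenic diet. The diets were apart in every library, but the change was small: the log2 fold change was -0.23 ± 0.06 (adjusted p = 0.0341), and the mean fell by 14.6%. The call was lost without control 1 (adjusted p = 0.0775), control 2 (0.128), ketogenic 2 (0.135) or ketogenic 3 (0.108), while the log2 fold change stayed between -0.24 and -0.20. With limma on log2 FPKM it was lost too, at pseudocounts of 1 (adjusted p = 0.0503) and 0.1 (0.0506).

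Gria2 (ENSMUSG00000033981, chr3:80681450-80802835, minus strand), the subunit that blocks calcium entry once edited, measured 867, 822 and 825 CPM on the control diet and 778, 833 and 800 CPM on the ketogenic diet. These overlapped. The log2 fold change was -0.06 ± 0.06 (adjusted p = 0.601), with a 95% interval from -0.19 to 0.069. Gria3 (ENSMUSG00000001986, X chromosome, 41400854 to 41678601, plus strand), whose product pairs mostly with GluA2, measured 213, 214 and 223 CPM on the control diet and 200, 211 and 210 CPM on the ketogenic diet. Its libraries did not overlap, but the change of -0.065 ± 0.057 (adjusted p = 0.561; 95% interval from -0.19 to 0.061) did not pass. For both genes a change of 0.2 in either direction lay outside the interval.

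Among the kainate subunits Grik1 showed the largest change of the 9 genes. Grik1 (ENSMUSG00000022935, chr16:87895900-88290265, minus strand) encodes GluK1, known in the hippocampus mainly from interneurons. It measured 8.28, 6.91 and 9.20 CPM on the control diet and 15.9, 15.1 and 14.6 CPM on the ketogenic diet. The lowest ketogenic library was well above the highest control library. The log2 fold change was 0.90 ± 0.14 (adjusted p = 0.00348), a 1.87-fold rise, from 117 to 152 raw counts in the control libraries and 248 to 294 in the ketogenic libraries.

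Grik3 (ENSMUSG00000001985, chr4:125490700-125714173, plus strand) encodes GluK3, a subunit of low glutamate affinity known from presynaptic receptors of mossy fibres. It measured 45.0, 49.1 and 58.9 CPM on the control diet and 65.5, 71.6 and 88.4 CPM on the ketogenic diet. The groups were separate, with ketogenic 3 standing above its fellows. The log2 fold change was 0.56 ± 0.13 (adjusted p = 0.0206), a 1.47-fold rise. The call was lost without control 1 (adjusted p = 0.0586), control 2 (0.0910), ketogenic 2 (0.0699) or ketogenic 3 (0.0621), with log2 fold changes of 0.48, 0.53, 0.59 and 0.42. With limma on log2 FPKM it was lost too, at pseudocounts of 1 (adjusted p = 0.0612) and 0.1 (0.0574).

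Grik2 (ENSMUSG00000056073, chr10:49094833-49788766, minus strand) encodes GluK2, the main channel-forming kainate subunit of pyramidal and granule cells. It measured 57.2, 70.9 and 67.5 CPM on the control diet and 75.03, 83.3 and 79.8 CPM on the ketogenic diet. The groups did not overlap, yet the log2 fold change of 0.28 ± 0.09 missed the threshold (adjusted p = 0.0749). It passed without a filter on low counts (adjusted p = 0.0204), with DESeq2 (0.0479) and with a replicate block (0.0442).

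Neither gene of the subunits with high glutamate affinity passed the test. Grik4 (ENSMUSG00000032017, chr9:42518135-42944493, minus strand), whose transcript is known as a mark of area CA3 and the dentate gyrus, measured 63.3, 61.9 and 62.2 CPM on the control diet and 62.9, 66.6 and 64.5 CPM on the ketogenic diet. These overlapped, with a log2 fold change of 0.05 ± 0.07 (adjusted p = 0.716) and a 95% interval from -0.094 to 0.19. Grik5 (ENSMUSG00000003378, chr7:25009849-25072346, minus strand), the broadly expressed partner of GluK2, measured 302, 293 and 276 CPM on the control diet and 268, 257 and 257 CPM on the ketogenic diet. The ketogenic libraries were all lower, and the log2 fold change of -0.16 ± 0.06 did not pass (adjusted p = 0.134; 95% interval from -0.29 to -0.027).

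**Figure D2:**
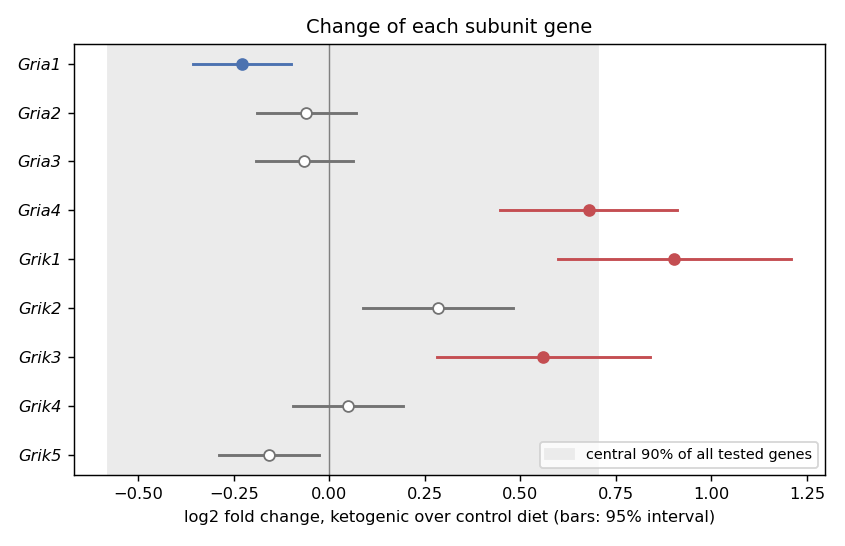
Log2 fold change of each subunit gene, ketogenic over control diet (horizontal axis), with 95% intervals; filled red points passed the test upward, the filled blue point downward and open points did not pass. The grey band, from -0.58 to 0.70, holds the central 90% of all tested genes, and Grik1 at 0.90 is the member outside it.

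The calls of Gria4 and Grik1 were kept in all 15 alternatives set with the design, and those of Gria1 and Grik3 in 9 of the 15. With control 1 and control 2 left out none of the 4 was called, in a fit that called 289 genes in all: the log2 fold changes were 0.53 for Gria4 (adjusted p = 0.0720), 0.73 for Grik1 (0.0715), 0.35 for Grik3 (0.355) and -0.21 for Gria1 (0.337). No member changed direction under any alternative run.

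Between control libraries Gria4, Grik1, Grik2 and Grik3 spread the most of the 9. The coefficient of variation between control libraries was 13.2% for Gria4, 14.1% for Grik1, 14.0% for Grik3 and 11% for Grik2, against 1.29% for Gria1, 3.01% for Gria2 and 1.22% for Grik4. Counting alone would give 3.74% for Gria4, 3.42% for Grik3 and 8.56% for Grik1 at these depths. The spread exceeded this counting error in 8 of 9 members on the control diet and 7 of 9 on the ketogenic diet.

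The pools of receptor transcripts were next described by each gene's share of the summed FPKM of its family, which compares genes per length. These are shares of RNA, and subunit protein and assembled receptors were not measured. The sum over Gria1 to Gria4 was 265, 263 and 262 FPKM in the control libraries and 240, 241 and 232 FPKM in the ketogenic libraries, a decrease of the mean by 9.74%. The sum over Grik1 to Grik5 was 79.1, 78.2 and 76.4 FPKM and 77.0, 76.7 and 78.2 FPKM, which overlapped. The kainate sum thus stood at 29.6 ± 0.317% of the AMPA sum on the control diet and 32.5 ± 0.998% on the ketogenic diet, without overlap.

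Within the AMPA pool the Gria1 share was 68.9%, 69.3% and 68.4% in the control libraries and 66.8%, 64.7% and 63.9% in the ketogenic libraries. The Gria4 share was 2.16%, 2.63% and 2.85% and then 4.12%, 4.46% and 4.99%. For both genes the diets were apart. The Gria2 share was 20.9%, 19.9% and 20.2% and then 20.7%, 22.03% and 22.03%, and the Gria3 share averaged 8.28 ± 0.278% and 8.78 ± 0.367%. Both overlapped between the diets.

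Within the kainate pool Grik5 made up the largest share in every library, at 73.4%, 71.8% and 69.5% in the control libraries and 66.7%, 64.2% and 63.3% in the ketogenic libraries. The Grik3 share averaged 7.25 ± 1.152% and 10.8 ± 1.61%, that of Grik2 6.28 ± 0.747% and 7.70 ± 0.421%, and that of Grik1 1.54 ± 0.238% and 2.91 ± 0.135%, each without overlap. Grik4 and Grik5 together, the genes of the subunits that need a partner, were 84.9 ± 1.84% of this transcript pool on the control diet. On the ketogenic diet they were 78.7 ± 1.61%, again without overlap. For 3 libraries against 3 an exact two-sided permutation test cannot give a p below 0.1, so none of these 11 comparisons of shares can pass, and the differences are descriptions.

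**Figure D3:**
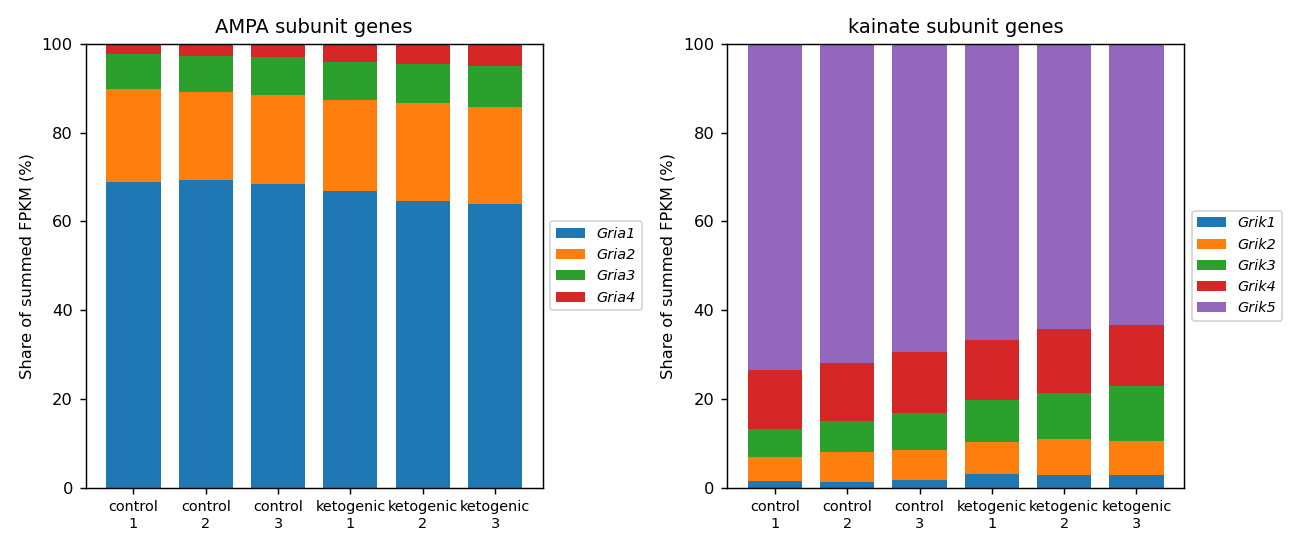
Share of each gene in the summed FPKM of the AMPA subunit genes (left) and kainate subunit genes (right), in percent, stacked to 100% for each library. The Gria4 band widens from 2.16% to 2.85% in the control libraries to 4.12% to 4.99% in the ketogenic libraries, and the Grik5 band narrows.

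The size of a share depends on the length used, and its direction between the diets mostly did not. With the longest coding transcript as length, an alternative chosen after seeing the data, the Gria2 share was 24.5% and 25.8% and the Gria1 share 60.4% and 56.7% on the control and ketogenic diets. With counts not scaled by length the Gria2 share was 38.1% and 39.8%. The Gria4 share differed by 1.98 percentage points per FPKM, 1.81 with transcript lengths and 1.44 unscaled. The Grik4 share, 0.585 points higher per FPKM, differed by -0.016 points unscaled.

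AMPA receptors work with auxiliary subunits that set their traffic and gating. Of 15 tested genes of this kind 5 fell and 2 rose, and the median log2 fold change was -0.04. Cacng8, which encodes TARP γ-8, the transmembrane AMPA receptor regulatory protein of the hippocampus, fell from 192 ± 4.37 to 137 ± 15.6 CPM (log2 fold change -0.49 ± 0.08, adjusted p = 0.00544). Cnih2, which encodes a cornichon that slows channel closing beside TARP γ-8, fell from 604 ± 13.0 to 438 ± 58.6 CPM (-0.46 ± 0.09, adjusted p = 0.00902). Its relative Cnih3 rose from 69.6 ± 5.10 to 89.3 ± 0.978 CPM (0.36 ± 0.07, adjusted p = 0.0122). Syndig1, whose product promotes excitatory synapse formation, fell by 0.70 (adjusted p = 0.00467), and Cacng5, the TARP γ-5 gene, fell by 0.83 (adjusted p = 0.0320). Shisa7 fell and Shisa9 rose (adjusted p = 0.0355 and 0.0398), both genes of the CKAMP family of AMPA receptor partners.

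Of these auxiliary calls those of Syndig1 and Cacng8 were kept with any 1 library left out. Cnih2 was no longer called without ketogenic 2 (adjusted p = 0.0637), nor was Cnih3 without control 2 or ketogenic 2 (0.0691 and 0.0718), nor Cacng5 without control 2, ketogenic 2 or ketogenic 3 (0.140, 0.147 and 0.0798). Cacng5 was also lost under a replicate block (0.0644). The call of Shisa7 was lost without any library but control 1 (up to 0.164), and that of Shisa9 without any but control 3 and ketogenic 1 (up to 0.149). Of the 15 alternatives set with the design, Cacng5 and Shisa7 were called in 8 each and Shisa9 in 9. Without control 1 and control 2 only Syndig1 kept its call (adjusted p = 0.0461).

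Genes whose products act on AMPA receptors before these reach the synapse, to help or to hold back, fell or did not pass. Of 5, 2 fell. Frrs1l, which encodes a protein of the endoplasmic reticulum complex that primes AMPA receptors, fell from 497 ± 15.6 to 401 ± 14.5 CPM (-0.31 ± 0.06, adjusted p = 0.00883). Abhd6, whose product holds back AMPA receptor delivery and also breaks down an endocannabinoid, fell by 0.29 (adjusted p = 0.0340). The call of Frrs1l was lost without control 2 (adjusted p = 0.0565) or ketogenic 2 (0.0704), and that of Abhd6 without any library but control 1 (up to 0.159).

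None of the 4 tested partners of kainate receptors was called by edgeR, and of these C1ql2 and Neto1 had an unadjusted p under 0.05. Neto1 and Neto2, the auxiliary subunits of kainate receptors, stood at 0.18 ± 0.06 and 0.18 ± 0.11 (adjusted p = 0.115 and 0.354). C1ql2, a secreted organiser of kainate receptors at mossy fibre synapses and also a dentate granule cell gene, stood at -0.51 ± 0.16 (adjusted p = 0.0740). The 3 RNA editing enzyme genes were not called either: Adarb1, which encodes ADAR2, the enzyme of the pore codon shown above, had 234 ± 20.4 and 211 ± 5.38 CPM (-0.14 ± 0.07, adjusted p = 0.264; 95% interval from -0.30 to 0.014).

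Among 19 scaffold and trafficking genes 4 rose and 3 fell, with a median of 0.05. Grip1 and Grip2, which encode the PDZ proteins that bind the tails of GluA2 and GluA3, rose by 0.52 ± 0.11 and 0.61 ± 0.13 (adjusted p = 0.0149 and 0.0153). Olfm2, a secreted noelin that binds AMPA receptors, rose by 0.78 ± 0.13 (adjusted p = 0.00531). Its call was kept in all 15 alternatives set with the design and lost without control 1 and control 2. Nptx1, a pentraxin that clusters AMPA receptors from outside the cell, fell by 0.42 (adjusted p = 0.00847), and Dlg3, the SAP102 scaffold gene, fell by 0.29 (adjusted p = 0.0137). Dlg4, the PSD-95 gene and one of the most abundant, stood at -0.19 ± 0.06 (adjusted p = 0.0792). The calls of Grip1 and Dlg3 were lost without control 2 (0.0711 and 0.0709) or ketogenic 2 (0.0647 and 0.0823), that of Grip2 without control 2, ketogenic 2 or ketogenic 3 (0.0634, 0.0657 and 0.0604), and that of Nptx1 without ketogenic 2 (0.0572). Grip2 was called in 10 of the 15 alternatives set with the design.

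**Figure D4:**
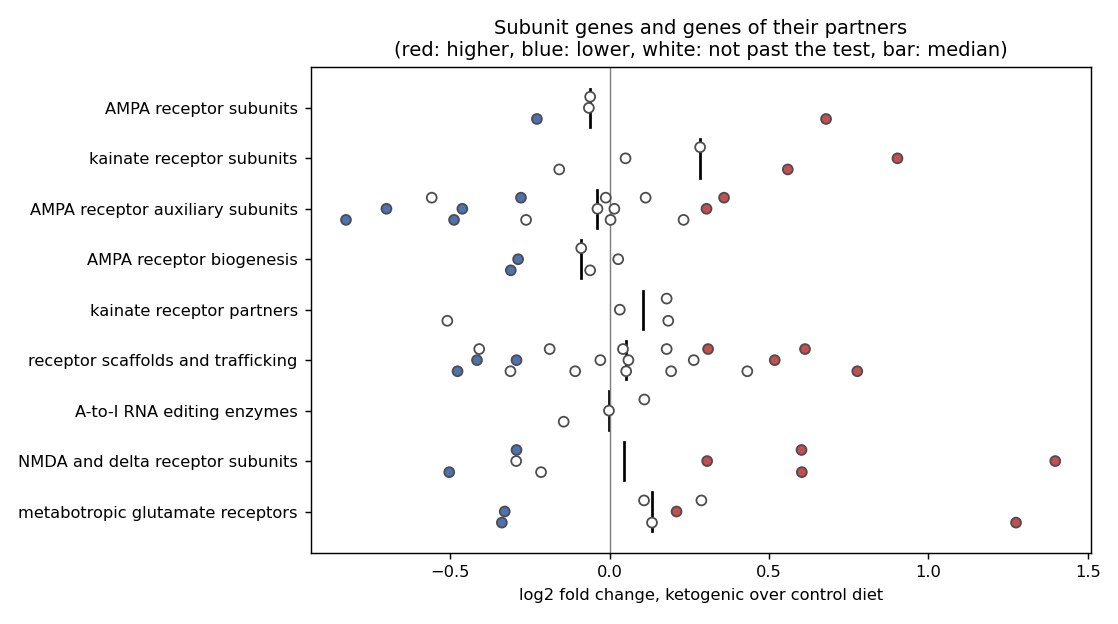
Log2 fold change, ketogenic over control diet (horizontal axis), of the subunit genes and of 7 lists of related genes, 1 point per gene; red points rose, blue points fell, white points did not pass and bars are medians. In the list of auxiliary subunits 5 genes fell and 2 rose.

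Several subunits are known from particular hippocampal cells, and markers of some of these cells differed between the same libraries. In bulk tissue, fewer cells of a type and less RNA per cell cannot be told apart. Of 24 interneuron markers 17 rose and none fell, and they summed to 941 to 971 CPM in the control libraries and 1288 to 1681 CPM in the ketogenic libraries, highest in ketogenic 3, where Gria4 and Grik3 were also highest and Grik1 was lowest of its diet. Their most abundant members per length were Sst, at 0.98 ± 0.12 (adjusted p = 0.00179), and Npy, at 0.25 ± 0.18 (adjusted p = 0.460). Pvalb, which encodes parvalbumin, measured 21, 20.7 and 27.7 CPM on the control diet and 29.9, 25.3 and 26.0 CPM on the ketogenic diet. These overlapped, and its log2 fold change of 0.23 ± 0.13 did not pass (adjusted p = 0.347; 95% interval from -0.062 to 0.52). No interneuron marker was at 0. Markers of subiculum and cortex rose in 6 of 14 and summed to 590 to 667 and then 761 to 788 CPM, with Fezf2 at 0.68 (adjusted p = 0.00356) and Lmo3 at -0.12 (0.453). Of 9 thalamus markers 3 rose and 2 fell, with Cacna1g at 0.78 (adjusted p = 0.000541) and Prkcd at -1.48 (0.000214).

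Other lists of principal cell markers, beside those of subiculum and cortex, held fallen genes. Of 6 glutamatergic neuron markers 3 fell, with sums of 8256 to 8379 CPM and then 5795 to 7163 CPM, lowest in ketogenic 3, where Gria1 was also lowest. Camk2a made up most of these sums, at means of 5074 and 3745 CPM. Slc17a7 (log2 fold change -0.159, adjusted p = 0.217) and Tbr1 (-0.093, 0.521) did not pass and overlapped between the diets. Of 14 dentate granule cell markers 9 fell, from sums of 1808 to 2017 to sums of 1174 to 1472 CPM, and of 12 markers of CA2 and CA3 7 fell, from 1426 to 1511 to 1040 to 1160 CPM. Nptx1, also among the scaffold and trafficking genes above, made up most of the CA2 and CA3 sums, at means of 879 and 659 CPM. Neurod6 is in both the glutamatergic and the CA1 list. Of 10 CA1 markers 3 rose and 4 fell, with overlapping sums of 1352 to 1602 and 1311 to 1435 CPM. Myelin markers fell in 11 of 14, those of choroid plexus in all 14, and none of 10 astrocyte or 8 microglia markers was called by edgeR. The most abundant per length were Camk2a and Nrgn among glutamatergic markers (log2 fold changes of -0.44 and -0.29), Fam163b and Pitpnm2 among dentate markers (-0.995 and -0.33), Bok and Nptx1 among those of CA2 and CA3 (-0.80 and -0.42) and Itpka and Neurod6 among those of CA1 (-0.47 and -0.57), and Nrgn (adjusted p = 0.0663) was the one of these 8 that did not pass. Those of the other lists included Mbp for myelin (-0.98), Ttr and Kl for choroid plexus (-6.09 and -2.84), Glul and Aldoc for astrocytes (-0.17 and 0.10), and C1qa for microglia (0.017). Of 11 oligodendrocyte precursor markers 1 rose and 1 fell, and its Olig1 and Tnr stood at -0.13 and -0.045. The part of these markers in the changes of the subunit genes was not tested. Grik4 overlapped between the diets, while the marker sums of dentate granule cells and of CA2 and CA3 did not, and the reason was not tested.

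**Figure D5:**
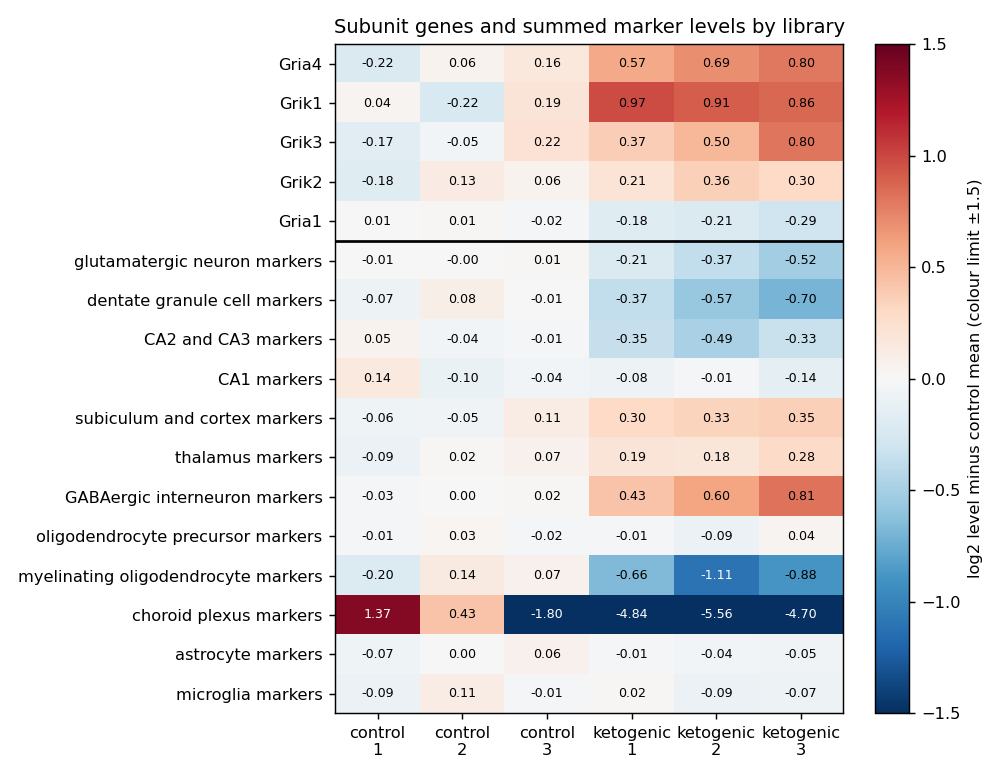
Log2 level of 5 subunit genes (top) and of the summed markers of each cell type (bottom) in every library, as the difference from the mean of the control libraries, with red above and blue below it and colour limited to ±1.5. Gria4 runs from -0.22 to 0.16 in the control libraries and from 0.57 to 0.80 in the ketogenic libraries, and the interneuron sum from -0.03 to 0.02 and from 0.43 to 0.81.

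The genes whose pattern over the 6 libraries was most like that of each called member were taken by Pearson correlation of log2 CPM among 9950 genes with a mean of at least 10 CPM. For Gria4 these included Ggps1 and Srgap2 (r of 0.995 and 0.995), for Grik1 Dpysl3, Uqcrc2 and Colec12 (0.994, 0.992 and 0.992), for Grik3 Zbtb46, Dlx1 and Rab1 (0.996, 0.996 and 0.995), and for Gria1 Rbm17, Tle1 and Nr3c2 (0.999, 0.998 and 0.998). The 6 points share the split by diet, and 114 to 268 genes had an r above 0.95 with each member, so these are descriptions.

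Promoter sequence was looked at for Gria4 and Grik3, the risen members for which a window was held. RefSeq windows on GRCm38.p6 were held for 6 of the 9 genes, Gria2, Gria4, Grik2, Grik3, Grik4 and Grik5, and not for Grik1, which also rose. The 250 bases before the start of Gria4 (chr9:4796235-4796484, minus strand) and Grik3 (chr4:125490446-125490695, plus strand) are printed with every GGGCGG, the GC box, on either strand in capitals.
Gria4: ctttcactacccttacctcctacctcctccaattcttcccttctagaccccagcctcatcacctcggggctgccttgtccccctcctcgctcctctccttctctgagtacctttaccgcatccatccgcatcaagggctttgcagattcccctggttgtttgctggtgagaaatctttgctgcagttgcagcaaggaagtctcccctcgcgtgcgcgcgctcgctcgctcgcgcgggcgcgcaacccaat
Grik3: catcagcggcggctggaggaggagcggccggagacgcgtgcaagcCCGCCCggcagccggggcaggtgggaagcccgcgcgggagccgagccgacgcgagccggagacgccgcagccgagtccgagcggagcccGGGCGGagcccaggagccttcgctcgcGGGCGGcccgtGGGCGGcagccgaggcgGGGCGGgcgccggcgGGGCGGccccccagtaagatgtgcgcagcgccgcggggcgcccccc
Grik3 held 6 such boxes and 82.0% G and C, Gria4 held none and 58.8%. The median G and C content of all 32851 windows was 52.4%. GGGCGG was in 3 of the 6 windows and in 32.7% of all windows of this length, TGACGTCA, the cyclic AMP response element, in 0 of 6 and 1.55%, and TATAAA in 0 of 6 and 12.4%. The windows with GGGCGG were those of Grik3 and of Grik4 and Grik5, which did not pass the test. These matches describe letters in a window, and Gria4 and Grik3 had none of the searched motifs in common.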

How the data were processed

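Messenger RNA of 6 hippocampal libraries, made with an Illumina TruSeq kit per the labels' protocols, was analysed from 2 tables. The first, deposited by the authors, holds unnormalized counts of reads for each Ensembl gene, and the other, also deposited by the authors, FPKM. CASAVA, featureCounts 1.5.0-p3, DESeq2 1.10.1 and the build mm9 are named in the submitters' processing notes. For the aligner, strand setting and FPKM tool: not given in the sources used here. All 9 members have the start and end of GENCODE M21, and 97.1% of 53620 shared genes do, so coordinates are taken as GRCm38. Other annotated genes inside the members lie on the same strand and hold at most 21 counts over all libraries.

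The count test was that of edgeR 4.0.16 under R 4.3.3 (filterByExpr, TMM, quasi-likelihood F-test, no covariate, Benjamini-Hochberg). The standard error is the log2 fold change over the square root of F. CPM uses TMM-scaled library sizes. The common biological coefficient of variation was 11.6% and the median standard error 0.13. Where a symbol had more than 1 row (Dlg2, Pick1) the row with most counts was used, and 1 of the listed symbols, Klhl17, had no row. Steps were tested on simulated data. Alternatives used limma 3.58.1 and DESeq2 1.42.0. The members and gene lists were chosen with earlier results of these data known. Named are all 9 members, up to 5 called genes of each list by smallest p, Adarb1, Neto1, Neto2, Cacng8 and Cnih2, the 2 most abundant markers of each cell type by mean FPKM and any at 0 throughout, and for each called member the 3 genes most correlated with it. C1ql2, Dlg4, Nrl, Pvalb, Sag, Shisa7, Shisa9, Slc17a7 and Tbr1 were named after their values were seen. Some genes that this rule takes are not reported here.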

Additional observations from a re-analysis of the deposited data

How the results depend on the processing

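Of the members called higher, 3 in the report, 2 to 4 were called with each library left out or under the other settings planned, and 0 without control 1 and control 2. Of the member called lower, Gria1, 0 was called with limma on log2 FPKM at pseudocounts of 1 and 0.1 and without control 1 and control 2, and 0 to 1 with a library left out. The related genes called were 12 higher and 14 lower. They became 5 and 9 on log2(FPKM + 1) values, 5 higher on log2(FPKM + 0.1) values, and 1 and 3 without control 1 and control 2. With a library left out 3 to 15 were higher and 2 to 15 lower. Over all genes 832 were called higher and 761 lower. Leaving out a library gave 324 to 936 and 214 to 941, lowest without ketogenic 2. No filter gave 1252 and 1210, among 30524 genes tested. On log2(FPKM + 1) and log2(FPKM + 0.1) values 480 and 504 were lower, and without control 1 and control 2 133 were higher and 156 lower. The joint share of Grik4 and Grik5, -6.28 points between the diets, was -8.23 with counts not scaled by length and -4.41 without control 1 and control 2, and -7.22 to -5.38 with a library left out. The cause of these shifts was not tested, and the fits that leave some libraries out also hold fewer. RLE and upper-quartile scaling moved no call of a member, and the median log2 fold change of all genes stayed between -0.009 and 0.003. Replicate numbers did not pair the libraries: same-numbered libraries had correlations of their deviations of -0.024, 0.061 and 0.029, and not every library was best correlated with its own number. A replicate block called 793 genes higher and 711 lower, 4 members higher and 1 lower. Of the 9 members depth limits Grik1 most, where counting error alone was 8.56% between control libraries.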

Other observations

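The other glutamate receptor families showed risen and fallen members in the same libraries. Of 8 tested NMDA and delta receptor genes 4 rose and 2 fell. Grin3a, which encodes a subunit that lowers calcium entry through NMDA receptors, rose from 27.2 ± 0.390 to 71.7 ± 7.96 CPM (log2 fold change 1.40 ± 0.09, adjusted p = 0.000196), and kept its call in all 16 alternatives run. Grin2d, an NMDA subunit gene known in the adult hippocampus from interneurons, rose by 0.60 ± 0.13 (adjusted p = 0.0201). Grin1, the obligatory NMDA subunit gene, fell from 394 ± 22.9 to 321 ± 5.01 CPM (-0.29 ± 0.06, adjusted p = 0.0147) and Grin2a, a main subunit gene of adult principal cells, from 377 ± 14.1 to 266 ± 38.5 CPM (-0.50 ± 0.09, adjusted p = 0.00832). The calls of Grin1 and Grin2a were lost without ketogenic 2 (0.0887 and 0.0582), and that of Grin1 also without control 2 (0.0547). The call of Grin2d was lost without control 1, control 2, ketogenic 2 or ketogenic 3 (0.0543, 0.0894, 0.0806 and 0.0695). It was kept in 9 of the 15 alternatives set with the design.

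Of 7 tested metabotropic glutamate receptor genes 2 rose and 2 fell. Grm8, a presynaptic receptor gene, rose from 3.88 ± 0.948 to 9.39 ± 0.896 CPM (1.27 ± 0.20, adjusted p = 0.00356) and was called with any 1 library left out. Its call was lost without control 1 and control 2. Grm5, the gene of a receptor coupled to phospholipase C, rose by 0.21 ± 0.06 (adjusted p = 0.0494). Grm2 fell by 0.33 (adjusted p = 0.0469). The calls of Grm2 and Grm5 were each lost with 5 of the 6 libraries left out in turn, at adjusted p of up to 0.168 and 0.221. Of the 15 alternatives set with the design, Grm2 was called in 5 and Grm5 in 6. Interneuron marker sums were higher and dentate marker sums lower in the ketogenic libraries, and their part was not tested.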
